A study of Mus musculus with 6 samples.

Results

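The genes described here are 42 mitosis and spindle genes of the mouse: the cyclins and kinases that start mitosis, the subunits of the centromere and kinetochore, the motors and proteins of the spindle, the regulators of anaphase, and the condensins. They were taken by symbol from a list drawn up for this purpose, and each symbol matched 1 of the 57170 gene identifiers of the deposited table. All 42 passed the filter on low counts, so every listed gene was tested. The samples were whole testes of mice at postnatal day 5, profiled by sequencing of polyadenylated RNA. The WT group holds 2 wild-type libraries (WT-1 and WT-2), and the sKO group holds 4 libraries (sKO-1 to sKO-4) of mice in which Mdm2 was knocked out conditionally in germ cells that had not entered meiosis. The labels name neither the Cre line nor the floxed allele, and nothing in them ties a library to its own animal. The p-values therefore cover only the spread among these libraries, which may be technical.

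A dividing cell enters mitosis when cyclin B and CDK1 are switched on by CDC25 phosphatases. The chromosomes are then compacted by condensin and topoisomerase II, kinetochores built on CENP-A chromatin attach to spindle microtubules, and the spindle checkpoint holds back the anaphase-promoting complex until every chromosome is attached. Transcripts of these genes rise late in the cell cycle under the MuvB complex together with B-MYB and FOXM1, and fall when MuvB joins the repressive DREAM complex, a switch that p53 can throw through the CDK inhibitor p21 (gene Cdkn1a). MDM2 is the ubiquitin ligase that keeps p53 low. In the testis of the first postnatal week spermatogonia divide, and so do Sertoli cells, the somatic nurse cells, and cells of the interstitium, so RNA of a whole testis holds mitotic transcripts from several cell types.

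The 6 libraries held 17.99 to 18.4 M expected counts each. Levels are given in CPM, that is counts scaled by TMM-normalised library size. Mdm2 itself stood at 67.2 and 75.9 CPM in the WT libraries and 37.6 to 47.3 CPM in the sKO libraries (edgeR adjusted p = 0.0241). That call was lost on leaving out WT-1 (0.171), WT-2 (0.111), sKO-2 (0.0561) or sKO-3 (0.0739). Germ cell transcripts were much lower in the same libraries: all 15 germ cell markers fell, with a median log2 fold change of -2.29, and their summed level was 931 and 646 CPM in WT and 120.3 to 196.5 CPM in sKO. The markers were chosen with earlier results of these data known, so their lower levels are not independent support. Without WT-1 none of the 15 passed the test, at a median of -2.03. In bulk samples fewer cells of a type and less RNA per cell cannot be told apart. The summed level of 11 Sertoli cell markers was 4844 and 5897 CPM in WT and 5629 to 6373 CPM in sKO, and 1 of the 11 was higher by the test, but 0 were when any single library was left out. The germ cell markers Ddx4 and Dazl were detected in every library. The libraries also split another way. The first principal component (38.1% of the variance) put WT-1 with sKO-1 and sKO-2 (subset 1) and WT-2 with sKO-3 and sKO-4 (subset 2). No label names a batch, and each subset holds both genotypes.

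Most of the mitosis and spindle genes had slightly lower fitted levels in sKO testes, and 1 of the 42, the mitotic cyclin Ccnb1, fell by a test that covered all genes. The median log2 fold change of the 42 was -0.21, with members between -0.69 (Espl1) and 0.15 (Cdk1), while the median of all 17707 genes tested was 0.03. Of the 42, 37 had a log2 fold change below 0 and 5 above it. Over all 17707 genes tested, 7907 were below 0 and 9800 above it, which is the share to set beside the counts by role below. With edgeR's quasi-likelihood test and Benjamini-Hochberg adjustment over all genes, 1 of the 42 was lower and 0 were higher, against 2.30% of all genes lower and 0.124% higher. At an unadjusted p under 0.05 the same test had 16 of the 42 lower, where 8.91% of all genes were, and 0 higher, where 4.17% were. DESeq2 called 3 lower (3.25% of all genes) and 0 higher (0.407%), and limma-voom 1 lower (2.52%) and 0 higher (0.102%). Of the members, 2 were lower with library sizes set to the Sertoli cell markers (2.93% of all genes lower, 0.0395% higher). Without the filter on low counts 2 were lower (1.66% and 0.0922%), and with the replicate number as a block 2 were (3.66% and 1.22%). In each of these fits 0 were higher. The block leaves sKO-3 and sKO-4 without a WT library of the same number, so its sKO effect rests on the libraries numbered 1 and 2. A fit with a term for the library subset, a split read from these same libraries, called 19 of the 42 lower (8.65% of all genes) and 0 higher (4.97%). In the fit without that term the members' share of calls, 1 of 42, is near that of all genes. Leaving out WT-1 put the median of the 42 at -0.13, with 32 members below 0.

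Summed over the 42 genes, the level was 4280 CPM in WT-1 and 3885 in WT-2, and 3472, 3661, 3441 and 3612 CPM in sKO-1 to sKO-4. Every sKO library lay below both WT libraries, and sKO-2 came nearest to WT-2. The group means were 4082 ± 280 CPM (SD, n = 2) and 3547 ± 107 CPM (SD, n = 4), a ratio of 0.869. The same ratio was 0.205 for the germ cell markers, and 1.12 for the Sertoli cell markers. Over the other marker lists it was 1.25 for Leydig cells, 0.831 for peritubular cells, 1.13 for stromal cells, 1.15 for endothelial cells, 0.9005 for macrophages and 1.37 for erythroid cells. The part of these cell types in the lower mitotic transcripts was not tested. At 18 of the 42 genes all 4 sKO libraries lay below both WT libraries, compared with 13.3% of all genes tested, and at 1 gene, Cdc25b, all lay above, compared with 9.79%. The groups overlapped at the other 23.

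**Figure D1:**
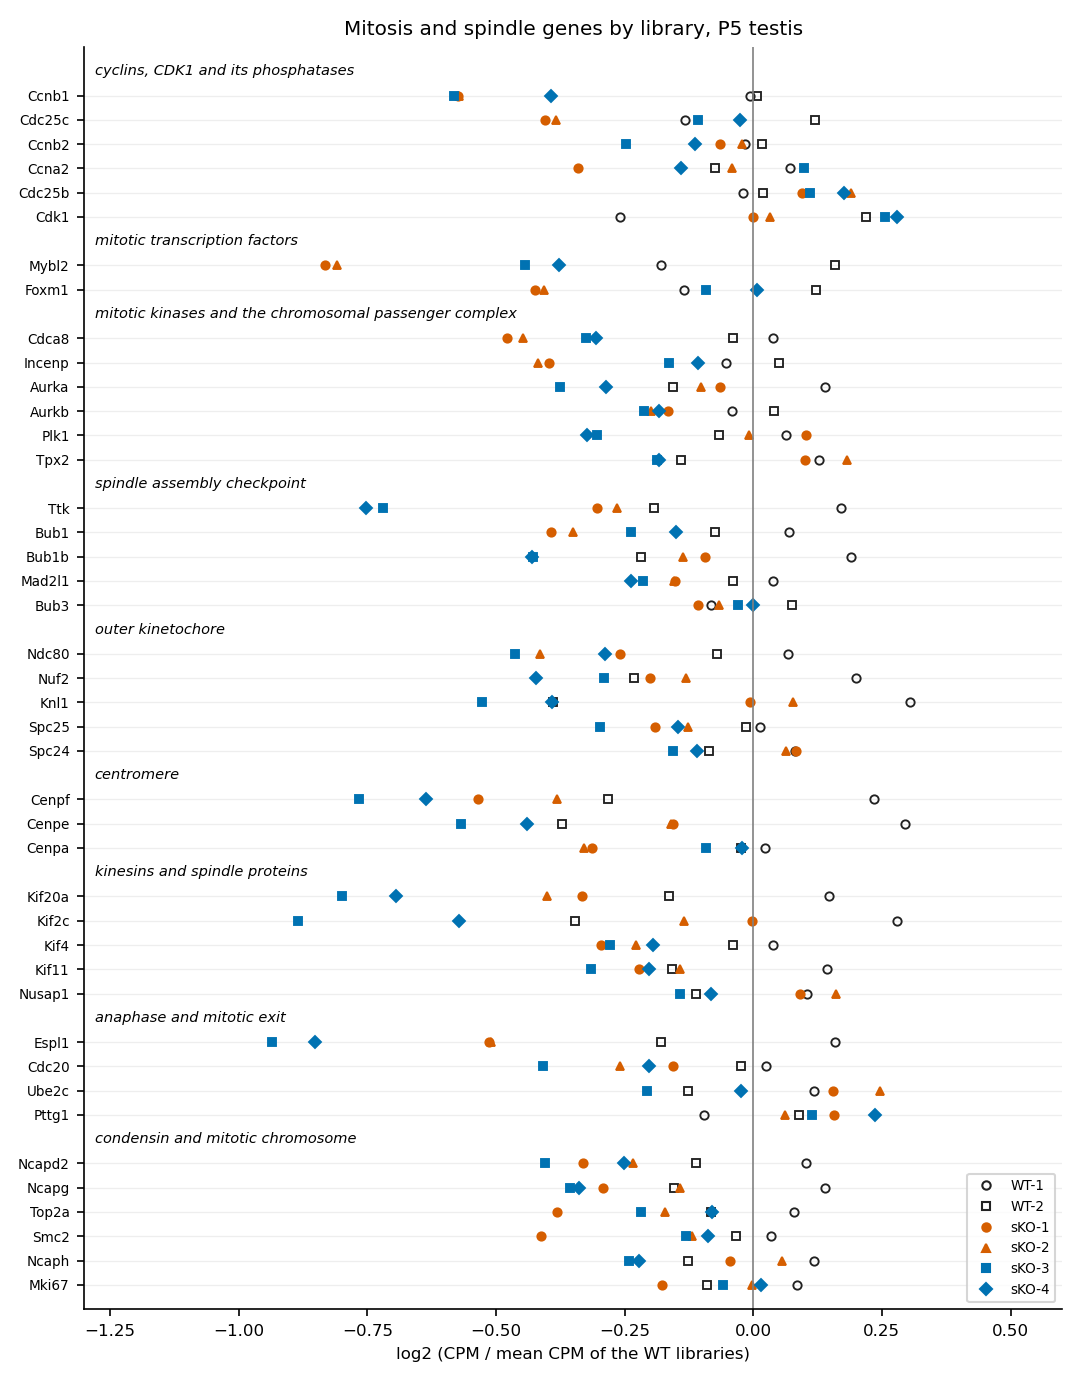
Each row is 1 mitosis or spindle gene, ordered within its role by log2 fold change, and the x axis is the log2 ratio of a library's CPM to the mean CPM of the WT libraries. Open symbols are WT, filled symbols sKO, and the sKO colours and the circle or square of WT mark the pair of library subsets. Most filled points lie left of 0, and at Ccnb1, Mybl2, Espl1, Kif20a and Cenpf all of them lie left of both open points, while at Cdc25b all lie to the right.

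Promoters of these genes are known for a pair of short elements: the CHR (cell cycle genes homology region), which MuvB binds through LIN54, and CCAAT boxes, which NF-Y binds. Promoter windows of 300 bases, 250 before and 50 after the annotated start, were found for 34 of the 42 genes in RefSeq's annotation of GRCm38.p6, an assembly other than the one of the counts. A gene with several annotated starts has several windows, and a match in any of them was counted. The CHR core TTTGAA, on either strand, occurred in 24 of the 34 genes (70.6%) and in 20.2% of 27025 genes. CCAAT, on either strand, occurred in 25 of the 34 (73.5%) and in 41.1% of all. Both occurred in 21 (61.8%), against 8.97% of all. In the windows of 27 DNA replication genes, which peak earlier in the cell cycle, the CHR core occurred in 4 (14.8%) and CCAAT in 17 (63.0%). The 27025 genes include genes that were not tested here. Among tested genes with a window, 1760 had the CHR core and 10189 did not, a lower share than over the 27025. A match describes letters in a window and does not show that a factor binds there.

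The following 6 windows, from base -110 to base 20 around the start, are shown because they contain the called gene (Ccnb1), the gene with the lowest log2 fold change (Espl1), another with a low one (Cenpf), the gene with the highest (Cdk1) and a pair in between (Cdc20 and Kif11); they were picked after the values were seen. They are written 5′ to 3′ on the strand of the gene, with CHR cores and CCAAT boxes of either orientation in capitals. In GRCm38.p6 they are chr13:100786467-100786596 (minus strand, Ccnb1), chr15:102296183-102296312 (plus strand, Espl1), chr1:189688067-189688196 (minus strand, Cenpf), chr10:69352893-69353022 (minus strand, Cdk1), chr4:118437324-118437453 (minus strand, Cdc20) and chr19:37376272-37376401 (plus strand, Kif11).
Ccnb1: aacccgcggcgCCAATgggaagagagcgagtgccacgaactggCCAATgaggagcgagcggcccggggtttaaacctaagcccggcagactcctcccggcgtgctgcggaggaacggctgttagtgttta
Espl1: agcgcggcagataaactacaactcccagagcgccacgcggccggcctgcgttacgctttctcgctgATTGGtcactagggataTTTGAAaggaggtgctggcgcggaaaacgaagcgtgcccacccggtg
Cenpf: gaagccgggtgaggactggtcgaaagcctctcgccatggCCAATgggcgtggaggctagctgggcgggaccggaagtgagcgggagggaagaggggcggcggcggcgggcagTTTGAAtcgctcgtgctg
Cdk1: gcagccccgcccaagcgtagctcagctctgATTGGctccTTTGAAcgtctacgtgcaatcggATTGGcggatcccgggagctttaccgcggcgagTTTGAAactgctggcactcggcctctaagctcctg
Cdc20: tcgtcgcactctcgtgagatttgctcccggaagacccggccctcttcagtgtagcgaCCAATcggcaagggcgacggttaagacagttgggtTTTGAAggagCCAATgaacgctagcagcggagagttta
Kif11: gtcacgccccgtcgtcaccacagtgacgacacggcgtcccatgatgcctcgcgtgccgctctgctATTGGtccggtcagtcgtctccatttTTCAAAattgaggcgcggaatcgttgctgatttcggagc
The Espl1, Cdc20 and Kif11 windows have 1 CHR core each before the start, whose first bases are at -27, -18 and -19. Cdk1 has 2, at -71 and -15, and Cenpf has 1 just after the start, at base 3. The window of Ccnb1 has CCAAT boxes at -99 and -67 and no exact CHR core. Among the members, the 24 with a CHR core had a median log2 fold change of -0.21 (22 below 0) and the 10 without one -0.22 (7 below 0). A variant of the core, TTCGAA, occurred in 4 of the 34 members with a window (11.8%) and in 1.8% of all genes. Bub1 and Cdc25b have only the variant and are counted among the 10 without the core. Over all genes tested that have a window, the medians were 0.02 for 1760 genes with the core and 0.03 for 10189 without it. The medians with and without the core lay close together among the members, and no test of their difference was made.

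Of the 6 cyclin, CDK1 and CDC25 genes, only Ccnb1, which encodes cyclin B1, passed the edgeR test. Ccnb1 was at 128 CPM in WT-1 and 129 in WT-2, and at 86.2, 86.3, 85.7 and 97.8 CPM in sKO-1 to sKO-4. The WT libraries were nearly equal, all 4 sKO libraries were below them, and sKO-4 was the highest of the 4. The means were 128 ± 0.950 CPM (SD, n = 2) and 89.0 ± 5.85 CPM (SD, n = 4), a ratio of 0.693. The fitted log2 fold change was -0.53 with an SE of 0.087 (adjusted p = 0.0276, edgeR). Its log2 fold change was -0.59 within subset 1 and -0.50 within subset 2. The call was lost on omission of WT-1 (adjusted p = 0.245) or of WT-2 (0.102). Omission of a single sKO library also lost it in 3 of 4 cases, at 0.0683 for sKO-1, 0.0867 for sKO-2 and 0.0899 for sKO-3, and so did fitting only the libraries numbered 1 and 2 (0.0536). It held without sKO-4 (0.0326), and over the 19 alternatives the log2 fold change stayed between -0.70 and -0.50 and the adjusted p between 9.33e-04 and 0.245. Other mouse sequences resemble Ccnb1: 4 other genes of the GENCODE annotation share a stretch of at least 200 bases at 95% identity or more. The longest stretch is that of Gm12856, at a mean of 0.017 CPM, and levels of the others are not given here. The expected count of Ccnb1 was whole in 1 of the 6 libraries. How many of its reads are shared with those genes was not tested.

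The other 5 genes lay on both sides of 0, and none passed the edgeR test. Cdk1, the kinase that cyclin B activates, was at 108.6 CPM in WT-1 and 151 in WT-2 and at 129.8, 133, 155 and 158 CPM in sKO. The WT libraries differ from each other by more than the group means do, and within each subset both sKO libraries exceed their WT library. Its log2 fold change was 0.15 (95% interval -0.20 to 0.50). Ccna2, cyclin A2, ranged from 134 to 182 CPM in sKO around WT values of 178 and 161, with a log2 fold change of -0.10 (interval -0.39 to 0.20). Ccnb2, cyclin B2, was at 67.7 and 69.2 CPM in WT and 57.7 to 67.4 CPM in sKO, so the groups do not overlap but nearly touch (log2 fold change -0.11, interval -0.32 to 0.11). Of the CDC25 phosphatases, which activate CDK1, Cdc25b was at 45.0 and 46.2 CPM in WT, with sKO at 48.7, 52.0, 49.2 and 51.5 CPM. All 4 sKO libraries were above both WT libraries by a small margin, with a log2 fold change of 0.14 (interval -0.06 to 0.34, adjusted p = 0.568). With library sizes set to the Sertoli cell markers the log2 fold changes of Cdc25b and Cdk1 were -0.024 and -0.0043. That scaling moved the median of all genes from 0.03 to -0.14 and each of the 42 members by -0.19 to -0.15, so it changes their sign but hardly their place relative to other genes. Cdc25c was at 26.5 and 31.6 CPM in WT and 22.0 to 28.5 CPM in sKO (-0.22, interval -0.58 to 0.14).

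Mybl2 encodes B-MYB, which joins MuvB to switch on late cell cycle genes. It was at 36.7 CPM in WT-1 and 46.4 in WT-2, and at 23.3, 23.7, 30.6 and 32.0 CPM in sKO-1 to sKO-4. The groups do not overlap, and both groups are higher in subset 2 than in subset 1. The log2 fold change was -0.60 (SE 0.17, edgeR adjusted p = 0.161), or -0.66 within subset 1 and -0.58 within subset 2. Foxm1, the forkhead factor of the same programme, was at 98.4 and 118 CPM in WT, against 80.5, 81.5, 101 and 109 CPM in sKO. Here the sKO libraries of subset 2 lie above WT-1, so the groups overlap (-0.22, SE 0.15, adjusted p = 0.641).

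All 6 genes of the mitotic kinases and the chromosomal passenger complex had log2 fold changes below 0, and none passed the edgeR test. Cdca8, which encodes borealin, a subunit of the chromosomal passenger complex, was at 74.6 and 70.7 CPM in the WT libraries and 52.1, 53.2, 58.0 and 58.8 CPM in the sKO libraries. The gap between the groups is wider than the spread within either, with a log2 fold change of -0.39 (SE 0.091), yet the edgeR adjusted p was 0.0852. Aurkb, the kinase of that complex, was at 56.1 and 59.3 CPM in WT and 49.8 to 51.4 CPM in sKO (-0.19, SE 0.081), and its scaffold Incenp at 152 and 163 CPM in WT and 118 to 146 CPM in sKO (-0.26, SE 0.11). Both had no overlap between groups and adjusted p of 0.376 and 0.379. Aurka, the spindle pole kinase, overlapped (-0.20, SE 0.14), and so did Plk1, the polo kinase (-0.12, SE 0.14). Tpx2, which activates Aurora A on the spindle, was at 138 and 115 CPM in WT, with sKO at 136, 144, 111 and 112 CPM. These values follow the library subsets and not the genotypes, and its log2 fold change was -0.013 (interval -0.34 to 0.31).

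In the spindle assembly checkpoint, all 5 genes had log2 fold changes below 0 (7907 of 17707 over all genes), and none passed the edgeR test. At 3 of them all sKO libraries lay below both WT libraries, as they did at 13.3% of all genes tested. Ttk encodes MPS1, the kinase that starts the checkpoint signal. It was at 45.9 CPM in WT-1 and 35.7 in WT-2, and at 33.1, 34.0, 24.8 and 24.2 CPM in sKO-1 to sKO-4. The lowest WT library is only slightly above the highest sKO library, and subset 1 is higher than subset 2 in both genotypes. The log2 fold change was -0.49 (SE 0.18, adjusted p = 0.299), and -0.48 and -0.55 within the subsets. Bub1, a kinetochore kinase of the checkpoint, was at 81.6 and 73.8 CPM in WT, against 59.2, 60.9, 65.9 and 70.03 CPM in sKO (-0.28, SE 0.10, adjusted p = 0.274). Mad2l1, the inhibitor of CDC20, was at 83.7 and 79.4 CPM in WT and 69.2 to 73.4 CPM in sKO (-0.19, SE 0.080). Bub1b, which encodes BUBR1, overlapped at -0.26 (SE 0.15). Without WT-1 Bub1b was at -0.045 and Ttk at -0.30. Bub3, the adaptor of BUB1 and BUBR1, was at 108.7 and 121 CPM in the WT libraries and 106.7, 109.8, 113 and 115 CPM in the sKO libraries, inside or beside the WT range (-0.050, interval -0.24 to 0.15).

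All 5 outer kinetochore genes had log2 fold changes below 0, and none passed the edgeR test. Ndc80, a subunit of the complex that grips microtubules, was at 56.4 and 51.3 CPM in WT, with sKO at 45.04, 40.4, 39.1 and 44.1 CPM, with no overlap (-0.35, SE 0.10, adjusted p = 0.161). Its partner Spc25 was at 55.4 and 54.3 CPM in WT and 44.6 to 50.2 CPM in sKO (-0.19, SE 0.090, adjusted p = 0.439). Spc24, which pairs with SPC25, was at 27.4 and 24.4 CPM in WT, against 27.4, 27.0, 23.2 and 24.0 CPM in sKO. Those values are ordered by subset and show no gap between genotypes (-0.026, interval -0.32 to 0.27). Nuf2 (-0.26, SE 0.14) and the scaffold Knl1 (-0.19, SE 0.24) overlapped, and Knl1 was at 36.8 CPM in WT-1 against 22.8 in WT-2. Without WT-1 Nuf2 was at -0.025 and Knl1 at 0.20.

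At the centromere, Cenpf, a large protein of the kinetochore corona, was at 168 CPM in WT-1 and 117 in WT-2, and at 98.2, 109.3, 83.6 and 91.5 CPM in sKO. No sKO library reached WT-2, but the WT libraries lie far apart. The log2 fold change was -0.57 (SE 0.16, edgeR adjusted p = 0.145), -0.71 within subset 1, -0.43 within subset 2 and -0.29 without WT-1. Cenpa, the histone H3 variant that marks the centromere, was at 88.8 and 85.9 CPM in the WT libraries and 70.3, 69.6, 81.9 and 86.1 CPM in the sKO libraries, so that sKO-4 touched the WT range (-0.18, SE 0.11, adjusted p = 0.580). Cenpe, the kinetochore kinesin, was at 110.0 CPM in WT-1 and 69.4 in WT-2 and overlapped (-0.32, SE 0.20).

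Among the kinesins and spindle proteins, Kif20a, a kinesin of the central spindle, was at 110.4 CPM in WT-1 and 88.96 in WT-2, and at 79.2, 75.5, 57.2 and 61.6 CPM in sKO-1 to sKO-4. The groups do not overlap and the sKO pairs differ by subset (-0.54, SE 0.16, adjusted p = 0.159, with -0.54 and -0.59 within the subsets). Kif20a shares 29.3% of its exon bases with Cdc23, on the opposite strand of the annotation. The sources used here do not state a strand setting for the counting, so whether reads of the shared bases were kept apart is not known. Kif4, a chromosome-bound kinesin, was at 73.9 and 69.9 CPM in WT, with sKO at 58.6, 61.4, 59.3 and 62.8 CPM, a tight pair of groups with no overlap (-0.25, SE 0.082, adjusted p = 0.222). Kif4 likewise shares 15.1% of its exon bases with Pdzd11 on the other strand, and Ccna2, Cdc25c, Ube2c and Ncapg each share at least 10% with a neighbour. Kif11, the motor that pushes the spindle poles apart, overlapped at -0.22 (SE 0.10), as did the microtubule depolymerase Kif2c at -0.36 (SE 0.27). Without WT-1 these values were -0.062 for Kif11 and -0.0098 for Kif2c. Nusap1, which bundles spindle microtubules, was at 78.7 and 67.7 CPM in WT, against 77.9, 81.8, 66.3 and 69.2 CPM in sKO, and again the subsets and not the genotypes set the order (0.012, interval -0.26 to 0.29).

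Of the 4 regulators of anaphase, 2 had log2 fold changes below 0 and 2 above it. Espl1 encodes separase, the protease that cuts cohesin. It was at 60.3 CPM in WT-1 and 47.7 in WT-2, and at 37.8, 37.9, 28.2 and 29.9 CPM in sKO-1 to sKO-4. All sKO libraries were well below both WT libraries, and the log2 fold change was -0.69 (SE 0.16, edgeR adjusted p = 0.0864), with -0.69 within subset 1 and -0.72 within subset 2. DESeq2 called it (adjusted p = 0.00890), and over the alternatives its adjusted p ran from 7.55e-04 to 0.579, the last without WT-1. Pttg1, which encodes securin, the inhibitor of separase, was at 32.8 and 37.2 CPM in WT and 36.5 to 41.3 CPM in sKO (0.14, interval -0.10 to 0.39). Cdc20, the activator of the anaphase-promoting complex, was at 82.97 and 80.2 CPM in the WT libraries and 73.2, 68.2, 61.5 and 70.95 CPM in the sKO libraries, with no overlap (-0.25, SE 0.095, adjusted p = 0.299). Ube2c, the ubiquitin-conjugating enzyme of that complex, was at 71.03 and 59.95 CPM in WT, with sKO at 72.9, 77.7, 56.8 and 64.4 CPM (0.053, interval -0.28 to 0.39). With library sizes set to the Sertoli cell markers, which lower all genes by a similar amount, Pttg1 was at -0.019 and Ube2c at -0.12.

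The proteins of the mitotic chromosome had log2 fold changes from -0.30 to -0.054. Ncapd2, a condensin I subunit, was at 256 and 221 CPM in WT, against 189.6, 203, 180.2 and 200.5 CPM in sKO, with no overlap (-0.30, SE 0.096, adjusted p = 0.207). Ncapg, another subunit of condensin I, was at 68.6 and 56.0 CPM in the WT libraries and 50.9, 56.5, 48.7 and 49.2 CPM in the sKO libraries, where sKO-2 just exceeded WT-2 (-0.28, SE 0.11, adjusted p = 0.347). Smc2, the condensin ATPase, had no overlap (-0.18, SE 0.11), while Ncaph (-0.11, SE 0.12) and Top2a, topoisomerase II alpha (-0.21, SE 0.11), overlapped. Mki67 encodes Ki-67, the coat protein of mitotic chromosomes that is used as a marker of dividing cells. It was at 364 and 323 CPM in WT, with sKO at 303, 343, 329.6 and 347 CPM. The sKO libraries fall on both sides of WT-2 and below WT-1, and the log2 fold change was -0.054 (interval -0.28 to 0.17).

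**Figure D2:**
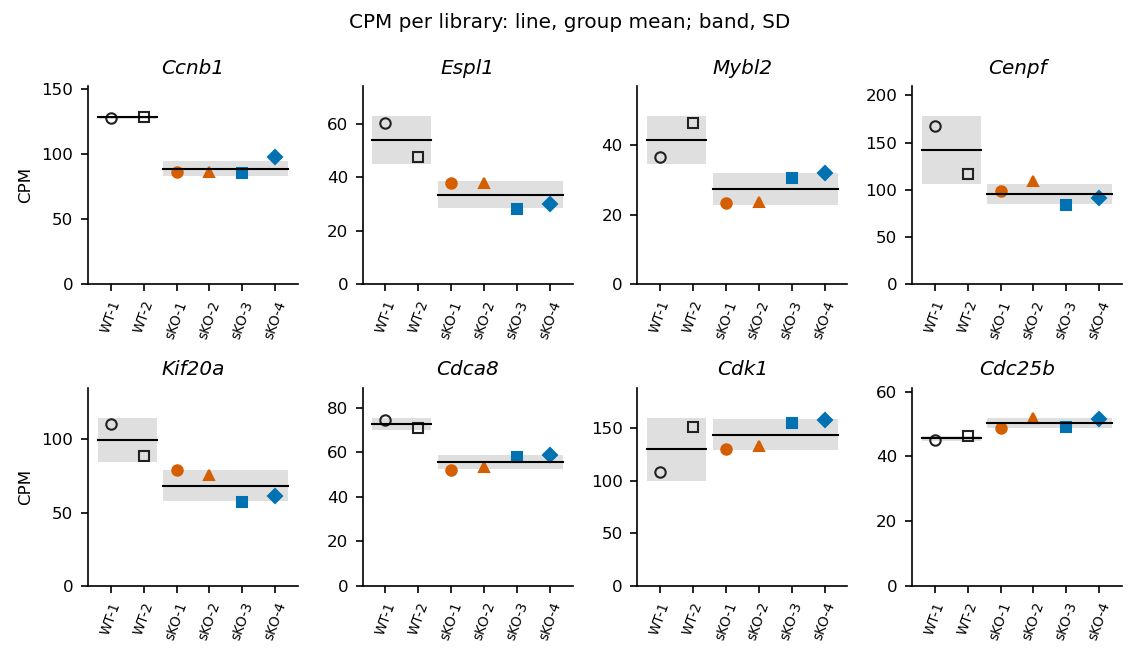
CPM in each of the 6 libraries for 8 of the genes, with the group mean as a line and the SD as a band; open symbols are WT and filled symbols sKO, and each y axis starts at 0. Ccnb1, Espl1, Mybl2, Cenpf, Kif20a and Cdca8 have all 4 sKO libraries below both WT libraries, Cdk1 overlaps, and Cdc25b has all 4 above.

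The subsets hold separate libraries, so each gives its own comparison of a single WT library with a pair of sKO libraries. At 29 of the 42 genes both sKO libraries were below the WT library of their subset in both subsets, against 22.6% of all genes tested. At 3 genes (Cdk1, Cdc25b and Pttg1) they were above it in both, against 25.4% of all genes. The median log2 fold change of the 42 was -0.31 in subset 1 and -0.19 in subset 2. In these fits the lone WT library has no replicate, so the spread of WT is not measured and is assumed to equal that of the sKO pair. Their counts are given for completeness and support nothing about the members: 13 of the 42 were below the threshold and lower in subset 1 (5.15% of all genes there) and 6 in subset 2 (3.22%), and 0 were higher in either (1.53% and 1.52% of all genes). The 19 genes called lower with all 6 libraries and a subset term were Ccnb1, Cenpf, Espl1, Kif20a, Mybl2, Foxm1, Incenp, Cdca8, Bub1, Bub1b, Mad2l1, Ttk, Ndc80, Cenpe, Kif2c, Kif4, Cdc20, Ncapd2 and Ncapg, and since the subsets were found from the same libraries the p-values behind these calls may be too small. Without the term Ccnb1 alone passed.

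**Figure D3:**
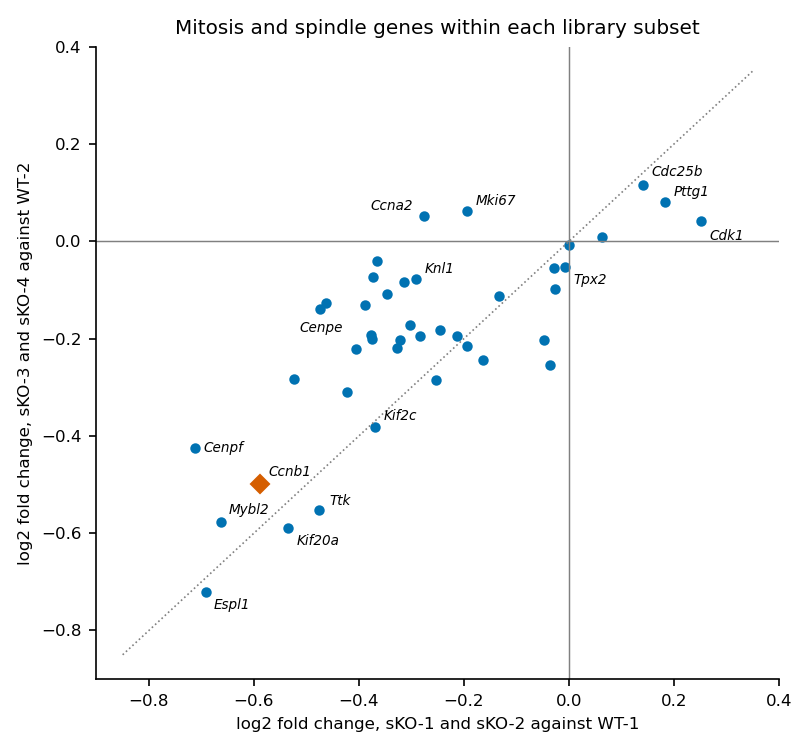
Each point is 1 mitosis or spindle gene, with its log2 fold change in subset 1 (sKO-1 and sKO-2 against WT-1) on the x axis and in subset 2 (sKO-3 and sKO-4 against WT-2) on the y axis; the dotted line marks equal values and the diamond is Ccnb1. Of the 42 points 35 lie below 0 on both axes, against 32.4% of all genes in both fits. Espl1, Mybl2, Cenpf, Ccnb1 and Kif20a lie toward the lower left.

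Ordering by library subset was not particular to the mitosis and spindle genes, since it was common over all genes tested. At 12 of the 42 every library of subset 1 was above every library of subset 2 (20.7% of all genes tested), and at 4 the reverse held (18.3%). Kif2c was 1.56 times, Knl1 1.48 times and Cenpe 1.38 times as high in subset 1 as in subset 2 on average. Foxm1 (0.795) and Cdk1 (0.8002) had the lowest such ratios among the 4 that were higher in subset 2, with Cdc25c and Bub3. Because WT-1 and WT-2 lie in different subsets, leaving either out mixes the subset with genotype. The median of the 42 was -0.13 when WT-1 was left out and -0.28 when WT-2 was, and over all genes 1 was lower without WT-1. Without WT-1, 13 members kept their sign at a value more than 1.5 times smaller, among them Aurka (-0.045), Ncapg (-0.13), Ncapd2 (-0.19) and Top2a (-0.13), and 7 changed sign. Without WT-2 these numbers were 2 (Foxm1 at -0.11 and Cdc25c at -0.12) and 3.

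Other genes of mitosis were listed from textbook knowledge, but with earlier results of these data known, so they are not an independent check. Of 78 further mitosis and spindle genes, 69 had a log2 fold change below 0, with a median of -0.17, against 7907 of all 17707 genes. By the edgeR test 1 was lower and 0 were higher (2.30% and 0.124% of all genes). The lower one was Cdca5, which encodes sororin, the protector of cohesin, at 38.99 and 34.7 CPM in WT, against 23.2, 22.3, 22.1 and 26.0 CPM in sKO (-0.65, SE 0.12, adjusted p = 0.0390). Its call ended without each of the 6 libraries, with adjusted p from 0.0573 to 0.354. Of 16 subunits and partners of the anaphase-promoting complex, 0 passed in either direction (median -0.029); the smallest unadjusted p belonged to the subunits Anapc1 (-0.22, adjusted p = 0.318) and Cdc26 (0.19, adjusted p = 0.531). Of 11 listed genes of the MuvB and DREAM complexes, 10 were analysed here and 0 passed (median -0.16). Those with the smallest unadjusted p were E2f5, an E2F of the repressive class (-0.42, adjusted p = 0.202), and Rbl2, which encodes the pocket protein p130 (0.27, adjusted p = 0.337). E2f5 lay below both WT libraries in all 4 sKO libraries and Rbl2 above both.

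Genes of DNA replication act before mitosis, in S phase. All 34 had log2 fold changes below 0 (7907 of 17707 over all genes), with a median of -0.33. By the edgeR test 4 were lower (2.30% of all genes). These were Orc1, an origin-binding subunit (-1.0), Pold1, the catalytic subunit of DNA polymerase delta (-0.54), Rpa2, a single-strand binding subunit (-0.54), and Mcm7, a helicase subunit (-0.45). None of the 4 stayed past the threshold when any single library was left out, with adjusted p between 0.0547 and 0.386. Whether the replication list differs from the mitosis list was not tested. Their summed level in sKO was 0.790 of that in WT, compared with 0.869 for the 42 mitosis and spindle genes. Of 12 D-type cyclin and CDK inhibitor genes, 5 had log2 fold changes below 0 and 2 were lower by the edgeR test (2.30% of all genes). Those 2 were Ccnd1, the D-type cyclin that starts the cycle (-1.34, adjusted p = 0.0152), and Cdkn2a, the locus of the CDK inhibitor p16 and of ARF (-2.10, adjusted p = 0.0205). Both calls ended without WT-1 (0.147 and 0.182) or WT-2 (0.0628 and 0.0810), and that of Cdkn2a also without sKO-2 (0.0616). Cdkn1a, the p53 target that restrains cyclin-CDK activity, was at 3.43 and 3.49 CPM in the WT libraries and 6.19, 5.09, 5.31 and 4.97 CPM in the sKO libraries. All 4 sKO libraries were above both WT libraries, but the log2 fold change of 0.64 (SE 0.22) did not pass the edgeR test (adjusted p = 0.239).

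**Figure D4:**
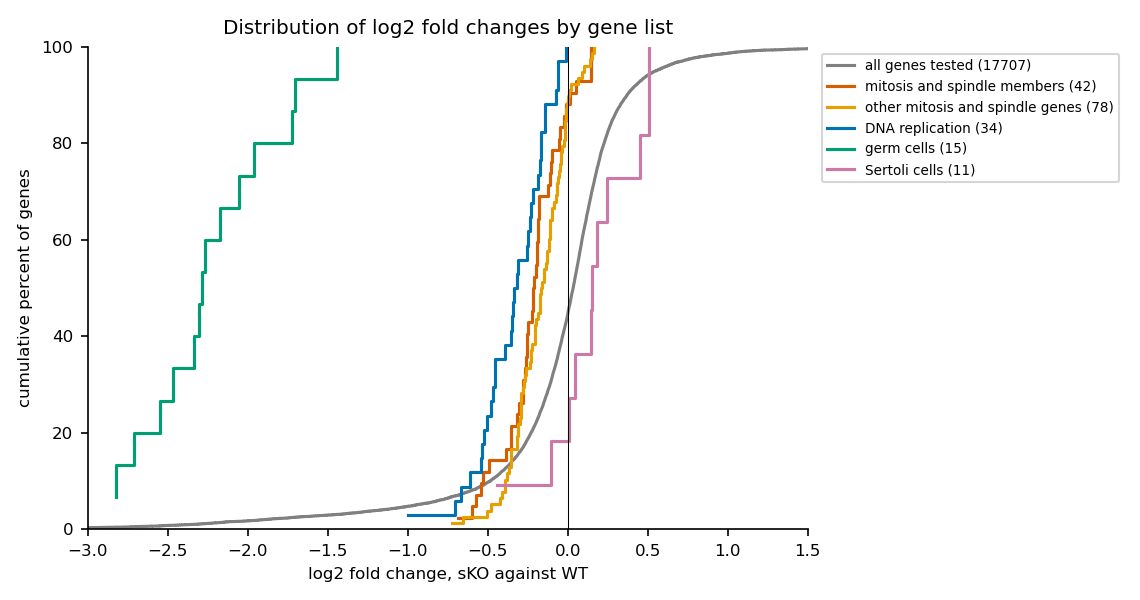
Cumulative percent of genes (y axis) by log2 fold change of sKO against WT (x axis), for all 17707 genes tested and for 5 gene lists; the x axis is cut at -3 and 1.5. The curve of the 42 mitosis and spindle genes lies left of that of all genes over most of its length, with a median of -0.21, close to that of 78 other mitosis and spindle genes (-0.17) and far from that of the germ cell markers (-2.29).

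**Figure D5:**
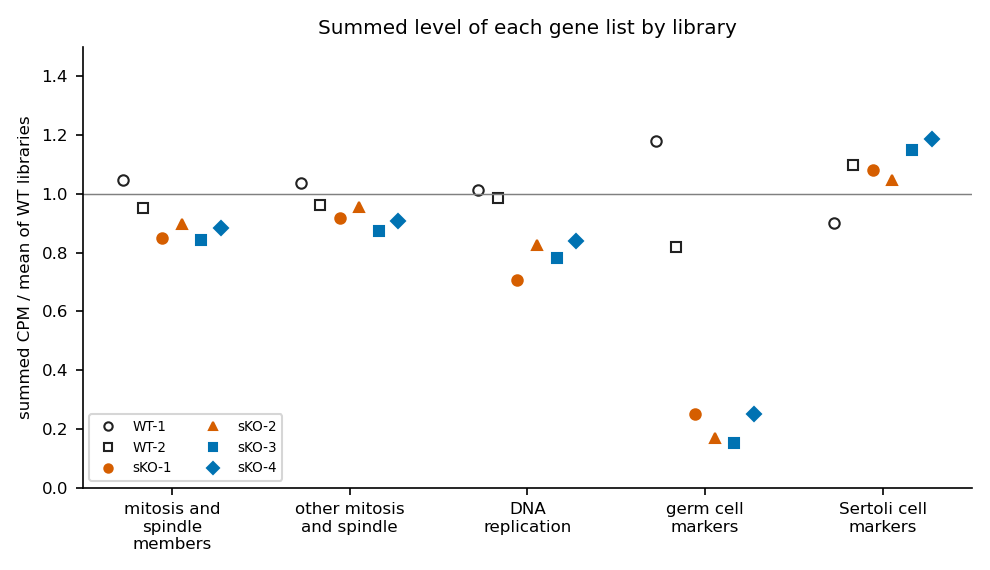
Summed CPM of each gene list in each library, divided by the mean of the WT libraries (y axis, starting at 0). The sKO libraries lie between 0.843 and 0.897 for the mitosis and spindle genes, between 0.708 and 0.841 for DNA replication genes, between 0.153 and 0.249 for germ cell markers and between 1.05 and 1.19 for Sertoli cell markers.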

How the data were processed

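RNA of 6 testis samples from P5 mice was captured on oligo dT beads and sequenced, according to the protocols in the labels. The submitters' processing notes name fastp, STAR, RSEM and the genome build mm39. The authors deposited expected counts (estimated counts that need not be whole), of which 19.4% of values were not whole; they were rounded here. Library totals of about 18 M set the precision of low genes. Symbols came from the GENCODE annotation, and 90.5% of 57170 identifiers, with 99.2% of counts, had one. The labels give 2 WT and 4 sKO libraries, whereas the series' design text speaks of 3 replicates for each group; the labels were followed.

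Genes were kept by filterByExpr with a minimum count of 10 and tested with edgeR 4.0.16 (R 4.3.3; TMM, glmQLFit and glmQLFTest) in all 6 libraries without covariates. P-values were adjusted by Benjamini-Hochberg over all 17707 genes, with a threshold of 0.05. Standard errors are the log2 fold change divided by the root of F, and intervals cover 95%. The procedure was also run on simulated counts with known changes. Those counts held no library subsets, so the run does not show how the test fares under that split. DESeq2 1.42.0, limma 3.58.1 (voom), other scalings and filters, a replicate block and the omission of each library were alternatives; the library subsets were added as alternatives after seeing the data. The members and all gene lists were chosen with earlier results of these data known. Any of the 42 members could be named; library values are given for those past the threshold and, in each role, for the 2 with the smallest unadjusted p and the 1 nearest 0, and others are added for context. Of each further list, genes past the threshold (up to 6) or, with none, the 2 with the smallest unadjusted p were named, together with Cdkn1a, Mdm2 and Dazl. Promoter sequences are from RefSeq (GRCm38.p6), and similar transcripts were found with BLAST 2.17.0. Reads of some members may be shared with other genes. At 9 of the 42 a stretch of at least 200 bases was near-identical to a transcript of another gene. At 6 of the 42 at least 10% of the exon bases were shared with another gene. Ccna2, Kif20a, Kif4 and Ncapg are in both counts, because the similar gene is the neighbour that overlaps them on the opposite strand.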

Additional observations from a re-analysis of the deposited data

Results flagged for a closer look

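In sKO-4 Ccnb1 was at 97.8 CPM, apart from the other 3 sKO libraries, which lay between 85.7 and 86.3 CPM. The gap to the nearest of them is 0.953 of the range of the group, above Dixon's critical value for 4 samples. In sKO-1 Smc2 was at 83.1 CPM, below the other sKO libraries, at 101.0 to 104 CPM, with a gap of 0.856 of the range. These were 2 of 56 genes checked, and chance sets a library apart in this way in about 1 in 20 groups.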

How the results depend on the processing

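The number of mitosis and spindle genes called lower was 1 and stayed at 1 under RLE, upper-quartile and unscaled library sizes, a filter at 1 CPM and limma-voom. It was 2 with library sizes set to the Sertoli cell markers, 2 without a count filter, 3 with DESeq2, 2 with the replicate block, 0 among the libraries numbered 1 and 2 without the block, 19 with a subset term, 13 in subset 1 and 6 in subset 2, and 0 to 1 when 1 library was left out. None of the 19 alternatives called a member higher. The median log2 fold change of the members was -0.21. It was -0.38 with Sertoli library sizes, which move the median of all genes from 0.03 to -0.14 and put all 42 members below 0, and -0.31 in subset 1. It ran from -0.28 to -0.13 over the fits without 1 library.

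Signs turned as follows. In subset 2 alone Ccna2 was at 0.052, Nusap1 at -0.0070 and Mki67 at 0.062. With Sertoli library sizes Cdk1 was at -0.0043, Cdc25b at -0.024, Nusap1 at -0.16, Ube2c at -0.12 and Pttg1 at -0.019, and with unscaled totals Nusap1 was at -0.024. With the replicate block Plk1 was at 0.049, Tpx2 at 0.15, Spc24 at 0.075, Knl1 at 0.073 and Ncaph at 0.010, and among the libraries numbered 1 and 2 without it Plk1 was at 0.035, Tpx2 at 0.13, Spc24 at 0.060 and Knl1 at 0.019. Over the fits without 1 library Cdk1 ran from -0.071 to 0.38, Tpx2 from -0.17 to 0.13, Bub3 from -0.13 to 0.0027, Spc24 from -0.14 to 0.059, Knl1 from -0.52 to 0.20, Cenpe from -0.64 to 0.052, Nusap1 from -0.12 to 0.12, Ube2c from -0.094 to 0.18, Mki67 from -0.17 to 0.036 and Ncaph from -0.25 to 0.020. The cause was not tested.

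Whether the replicate numbers shared by the groups pair the libraries could not be decided. The deviations from the group mean of those numbered 1 correlated at 0.416 and of those numbered 2 at -0.441. With 2 WT libraries the WT deviations mirror each other, and sKO-1 and sKO-2 both lie in subset 1 with WT-1. Opposite signs can therefore come from the subset split, whether or not the numbers pair. The replicate block gave 648 genes lower and 216 higher, against 408 and 22 without it. In that fit sKO-3 and sKO-4 have no WT library of the same number. They add nothing to its sKO effect, which rests on the libraries numbered 1 and 2, so its counts are not those of a fit on all 6 libraries. With WT-1 left out 1 gene was lower over all genes.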
